A study of Homo sapiens with 12 samples.

Results

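Of 46639 gene symbols listed, 18 were silent in untreated MOLM-13 cells and switched on in cells given decitabine (DAC), under the limits used here. A gene was taken as silent when each of the 3 untreated libraries held at most 3 normalised counts, and as switched on when each of the 3 DAC libraries held at least 8. Values were summed per gene symbol over all biotypes, and symbols beginning LINC, SNORD or SNORA or holding -AS were dropped, which removed 1 symbol that met the limits. The untreated and DAC values therefore chose the genes and are given as a description without a test. The limits were met by 0.0679% of the 26513 symbols with a retained name that were silent in the untreated libraries. MOLM-13 is a human acute myeloid leukemia line carrying an MLL-AF9 fusion, grown here with GM-CSF in every group. The culture medium described in the study's methods does not list GM-CSF. RNA was sequenced from 12 libraries, 3 per group: cells left untreated (96 h per the labels), cells given 100 nM DAC (72 h), cells given 1 µM all-trans retinoic acid (ATRA, 72 h), and cells given both drugs (DAC+ATRA, 72 h). The study's methods describe ATRA as joining the last DAC dose, an exposure shorter than the labels' time. The labels' times differ between untreated and treated cells, so that drug and time cannot be told apart in the choice of the genes. No vehicle-treated library was among those analysed. The labels describe technical triplicates of a single line, so that every SD and p-value covers the spread within 1 experiment.

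DAC is a cytidine analog that is built into DNA and traps DNA methyltransferases, so that methylation is lost as cells divide. Germline genes and some imprinted genes are kept silent by promoter methylation in most somatic cells, and leukemia cells treated with such inhibitors are known to express some of them. ATRA binds retinoic acid receptors and drives maturation of myeloid cells, during which the genes of neutrophil granules are switched on and off in an ordered way.

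The 18 genes comprised 15 protein-coding genes and 3 long non-coding RNAs. The germline or imprinted genes were GTSF1, TKTL1 and MKRN3, and PNMA5 belongs to a family derived from retrotransposon gag genes. A myeloid set held S100A12, CAMP, AZU1, HDC and RETN. The remaining coding genes were ZNF595, DLL4, ADAMTS20, C3orf70, AC007906.2 (CHD9NB in the GENCODE annotation used for positions) and AC138811.2. The non-coding genes were AC011472.2, AC104823.1 and AC104809.2 (UICLM). Only TKTL1 and PNMA5 lie on the X chromosome. Gene positions are given in GRCh38 as GENCODE annotates them.

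The upstream sequences of 6 of the genes are shown because DNA methylation acts on CpG dinucleotides and these genes differ in how many they carry. RefSeq (GRCh38.p14) held a sequence of the 250 bases before its annotated start for 14 of the 18 genes, and AC011472.2, AC104823.1, AC007906.2 and AC138811.2 were not matched. For 10 of the 14 genes the window also lay outside the gene as GENCODE places it. It reached into the gene by 35 bases for ZNF595, 148 for CAMP and 239 for HDC, and lay wholly within it for AZU1, so those windows are not upstream of every annotated start. The sequences run 5′ to 3′ on the gene's strand, with CG dinucleotides in capitals, and only the 215 bases outside the GENCODE gene are shown for ZNF595. TKTL1 lies at chrX:154295545-154295794 (+), GTSF1 at chr12:54473603-54473852 (-), ZNF595 at chr4:53071-53285 (+), MKRN3 at chr15:23565424-23565673 (+), S100A12 at chr1:153375622-153375871 (-) and RETN at chr19:7668799-7669048 (+).
TKTL1: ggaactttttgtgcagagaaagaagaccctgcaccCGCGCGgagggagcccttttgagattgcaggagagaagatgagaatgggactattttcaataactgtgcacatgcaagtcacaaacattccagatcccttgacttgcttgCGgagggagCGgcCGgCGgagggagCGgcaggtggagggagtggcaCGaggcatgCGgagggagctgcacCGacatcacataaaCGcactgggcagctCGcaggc
GTSF1: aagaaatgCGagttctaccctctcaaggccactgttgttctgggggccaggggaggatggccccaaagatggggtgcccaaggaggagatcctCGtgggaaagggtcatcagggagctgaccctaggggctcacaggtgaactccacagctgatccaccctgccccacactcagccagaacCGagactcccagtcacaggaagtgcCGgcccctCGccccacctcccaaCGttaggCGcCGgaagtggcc
ZNF595: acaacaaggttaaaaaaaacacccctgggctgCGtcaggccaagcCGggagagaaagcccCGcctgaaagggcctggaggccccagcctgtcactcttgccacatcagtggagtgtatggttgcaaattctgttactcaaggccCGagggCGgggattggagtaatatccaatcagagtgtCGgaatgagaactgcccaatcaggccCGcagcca
MKRN3: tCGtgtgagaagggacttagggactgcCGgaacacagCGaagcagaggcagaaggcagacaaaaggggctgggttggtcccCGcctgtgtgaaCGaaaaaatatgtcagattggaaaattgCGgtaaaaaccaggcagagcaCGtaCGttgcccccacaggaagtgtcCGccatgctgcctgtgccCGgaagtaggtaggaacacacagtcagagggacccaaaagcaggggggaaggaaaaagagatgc
S100A12: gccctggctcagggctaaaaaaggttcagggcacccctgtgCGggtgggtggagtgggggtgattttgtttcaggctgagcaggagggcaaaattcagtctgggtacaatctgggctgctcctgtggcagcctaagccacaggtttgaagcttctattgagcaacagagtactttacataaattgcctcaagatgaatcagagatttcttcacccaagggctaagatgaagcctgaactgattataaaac
RETN: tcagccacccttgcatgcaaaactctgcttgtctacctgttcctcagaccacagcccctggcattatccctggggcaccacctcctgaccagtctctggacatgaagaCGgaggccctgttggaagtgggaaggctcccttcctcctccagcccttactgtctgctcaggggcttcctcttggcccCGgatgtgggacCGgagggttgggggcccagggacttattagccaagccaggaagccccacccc

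The 250-base windows held 13 CpG dinucleotides for TKTL1, 10 for MKRN3, 8 for GTSF1, 3 for RETN and 1 for S100A12. The window of ZNF595 held 10, of which 7 lay in the part shown. Among the other windows outside the gene, AC104809.2 held 9, PNMA5 16, DLL4 20, ADAMTS20 22 and C3orf70 32. The windows that reach into the gene held 1 for CAMP, 4 for HDC and 7 for AZU1. Over the 15842 protein-coding genes of the same RefSeq table the median was 17, with quartiles of 6 and 26. Of these coding genes, 96.9% held at least as many CpG dinucleotides as S100A12, and 12.2% at least as many as C3orf70. The 6-base E-box CACGTG, searched on both strands, was present in 1 of the 14 sequences (PNMA5) against 7.84% of all coding promoters of this length. TCCCGC, the core of the site bound by E2F factors, was present in 2 (PNMA5 and ADAMTS20) against 30.8%. Methylation itself was not measured in these libraries.

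**Figure D1:**
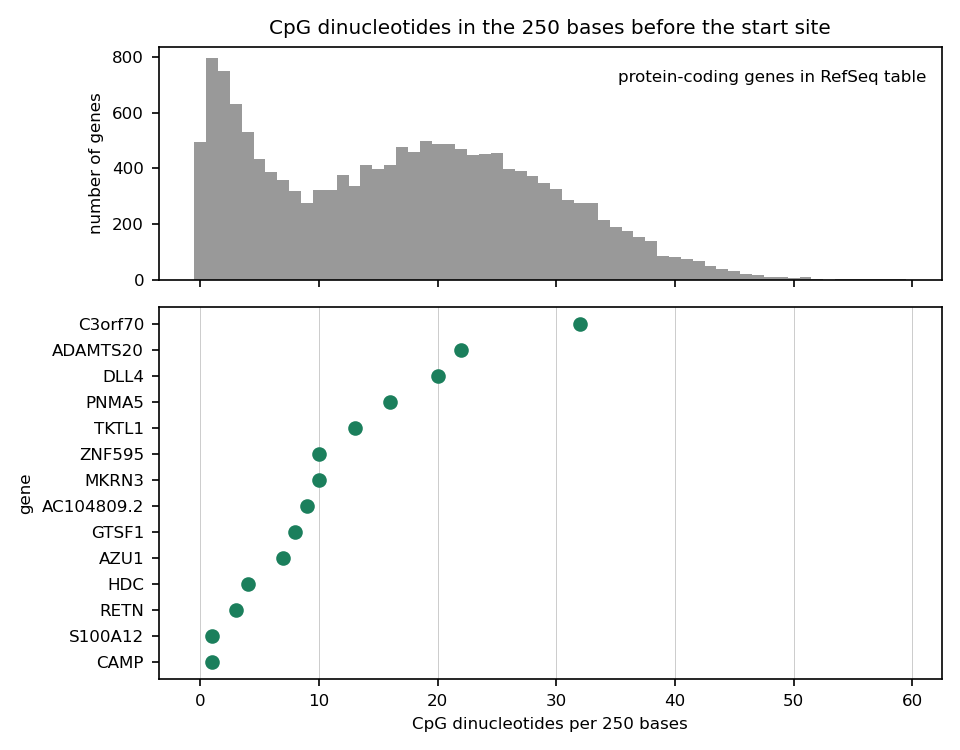
CpG dinucleotides in the 250 bases before the RefSeq start (x axis) of the 14 genes with a RefSeq sequence, beside the distribution over 15842 protein-coding genes. S100A12 and CAMP lie lowest at 1 and C3orf70 highest at 32, around a median of 17 for all coding genes, and the windows of ZNF595, CAMP, HDC and AZU1 reach into the gene as GENCODE places it.

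Depth and the counting of reads both bear on what silence means here. Recovered reads per library ranged from 8951104 to 11944630 in untreated cells, 4671214 to 6954604 with DAC, 8363702 to 10685348 with ATRA and 5607158 to 7162775 with DAC+ATRA. A single read was worth 0.627 to 0.812 normalised counts in untreated and 1.09 to 1.568 in DAC libraries. The 18 genes had 24 to 180 reads each over the DAC libraries and at most 9 over the untreated libraries. They are thus genes of low read number. A value of 0 means no counted read at this depth, under a counting whose handling of shared reads is not given. FLNA, a widely used gene, averaged only 1.42 in untreated cells. Replicate 3 of DAC stood apart from the other DAC libraries, with a mean chi-square per gene of 32.8 and 40.3 against 5.66 between replicates 1 and 2. Replicate 3 of untreated cells (25.5 and 31.8 against 5.06) and replicate 1 of ATRA (27.5 and 28.6 against 8.94) stood apart in the same way. DAC replicate 3 was the lowest DAC library for 12 of the 18 genes. Dropping it from the rule gave 28 genes, dropping untreated replicate 3 gave 30, and dropping DAC replicate 1 gave 29. Each of these contains the 18, because fewer libraries then have to meet the limits.

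Near the limits, membership was decided by single reads. C3orf70 and CAMP, with 8.71 in their lowest DAC library, were just inside the upper limit, and AC124283.2 and CHRM5, with 7.84, were just outside. AC007906.2 and ADAMTS20, with 2.51 in their highest untreated library, were just inside the lower limit, and S100B (3.11) and CHMP4C (3.14) were just outside. With stricter limits of 1 and 16 normalised counts, 4 genes were left (AC011472.2, TKTL1, GTSF1 and ZNF595).

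**Figure D2:**
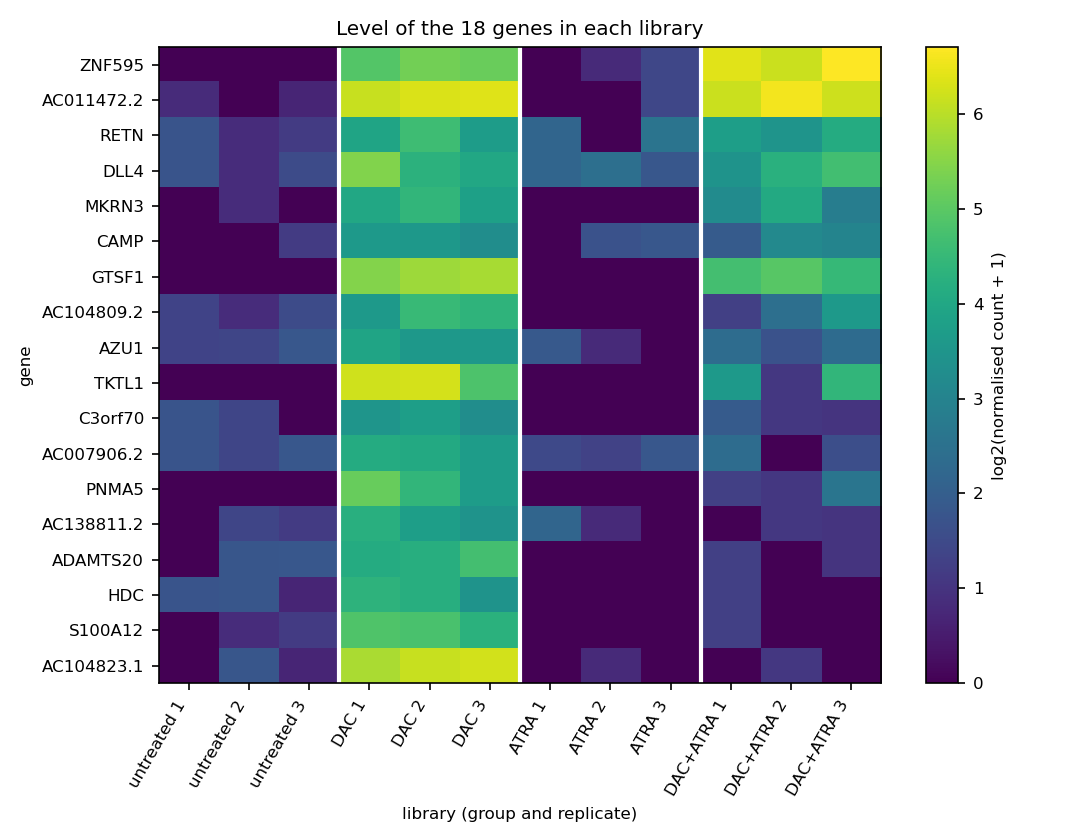
Normalised counts of the 18 genes (rows) in each of the 12 libraries (columns, grouped by treatment), on a log2 (value + 1) colour scale. Untreated values reach at most 2.51 and ATRA values at most 5.02, DAC values start at 8.71 by the choice of the genes, and DAC+ATRA values range from 0 to 103.

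With ATRA alone, none of the 18 genes was switched on. No gene reached 8 normalised counts in every ATRA library, and 15 of 18 stayed at 3 or less in all 3. The exceptions, DLL4, RETN and AC138811.2, peaked at 4.46, 5.02 and 3.58. TKTL1, GTSF1, S100A12, PNMA5, ADAMTS20, AC104809.2, MKRN3, HDC and C3orf70 (9 of 18) had no read in any ATRA library. Low levels were common: 26513 symbols with a retained name were at 3 or less in every untreated library and 26913 in every ATRA library. The share of all silent symbols that stayed low with ATRA was not taken, so nothing particular to the 18 is read from these counts. No gene was counted as lower or higher than in untreated cells, since the untreated values had been selected to be low. In these bulk libraries, fewer cells expressing a gene and less RNA per cell cannot be told apart.

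With DAC and ATRA together the genes divided. AC011472.2, ZNF595, GTSF1, DLL4 and RETN (5 of 18) reached 8 in every DAC+ATRA library. AC104823.1, S100A12, ADAMTS20, HDC, AC138811.2 and C3orf70 (6 of 18) stayed at 3 or less in all of them, as in untreated cells, and the other 7 met neither limit. DAC+ATRA lay below every DAC library for 13 genes, above for ZNF595 alone, and overlapped with DAC for AC011472.2, DLL4, RETN and MKRN3. These positions against DAC are a description, because the DAC values were chosen to be high. The share of all genes with such positions was not taken, so nothing about ATRA is read from the 13.

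DAC+ATRA was then tested against ATRA, a comparison of 3 against 3 libraries that the rule did not use. limma on log2 (normalised count + 1) called 4 of the 18 genes higher in DAC+ATRA at an adjusted p under 0.01 (AC011472.2, ZNF595, GTSF1 and MKRN3), which is 22.2% against a background of 2.83% of the 16832 genes tested (6.26% in either direction). None was called lower (background 3.43%), but the genes held at most 5.02 normalised counts in any ATRA library, and 9 held none, so that a lower call was hardly within reach and nothing is read from its absence. At an unadjusted p under 0.05, 11 were higher (background 15.2%). The same limit of low ATRA levels applies to the 0 that were lower at that p (background 13.9%) and to the 0 lower by edgeR and DESeq2. Every DAC+ATRA library lay above every ATRA library for 11 of 18 genes (background 17.3%). The median log2 difference was 1.59 over the 18 genes and 0.01 over all genes tested. All 18 had at least 8 normalised counts in every DAC library, which by itself was enough to pass the filter on low values. The 18 were chosen as raised by DAC and were low in ATRA, whereas the background holds genes of every level. The higher shares are therefore a description, and nothing is read from their distance to the background. edgeR called 7 of the genes higher, and without the filter on low values limma called only GTSF1 and ZNF595.

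**Figure D3:**
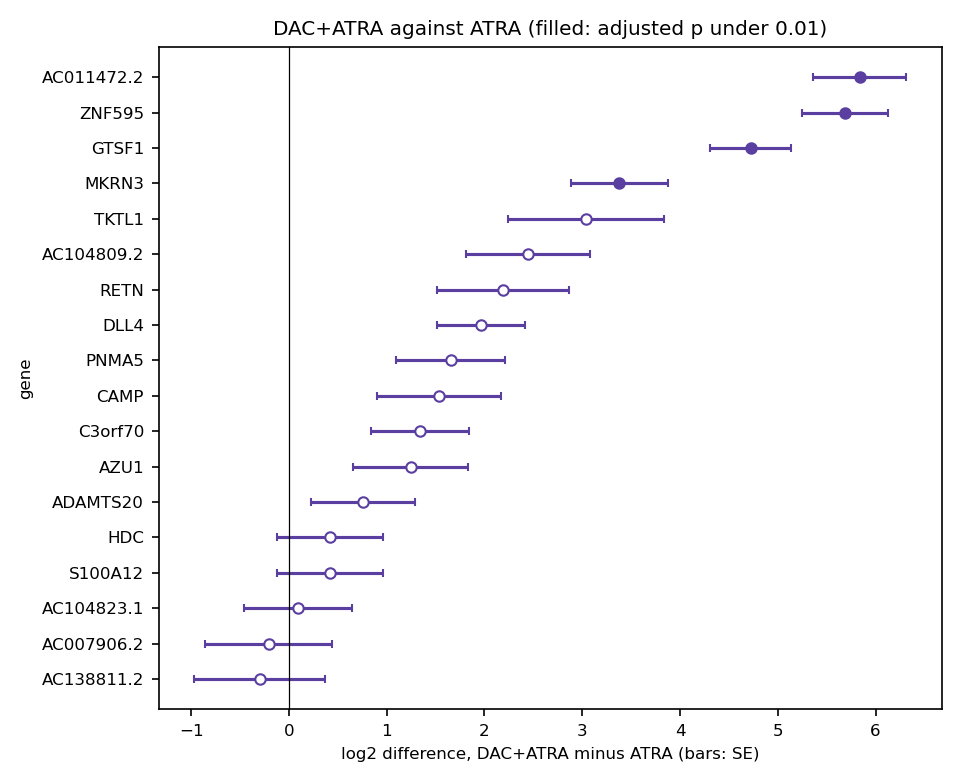
Log2 difference between DAC+ATRA and ATRA (x axis, limma estimate on log2 (normalised count + 1), bars ± SE) for each of the 18 genes, with genes passing an adjusted p under 0.01 marked. AC011472.2 (5.84), ZNF595 (5.69), GTSF1 (4.72) and MKRN3 (3.38) pass, and 2 genes lie below 0.

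Among the germline and imprinted genes, GTSF1, which encodes a zinc-finger protein of the piRNA pathway that silences transposons in germ cells, lies on chromosome 12 (54455950 to 54473602, minus strand). It had no read in any untreated or ATRA library. It reached 43.3, 51.8 and 55.5 normalised counts in the DAC libraries and 25.2, 30.4 and 21.4 in the DAC+ATRA libraries. All DAC+ATRA values were therefore above all ATRA values and below all DAC values, with a mean of 51.2% of the DAC mean. Against ATRA the difference was 4.72 on the log2 (value + 1) scale (SE 0.41, limma adjusted p = 2.09e-04), or at least 9.55-fold when ATRA is set to 3 reads per library. The call held in all 14 alternatives, with adjusted p from 1.99e-07 to 0.00517. On the opposite strand GTSF1 overlaps the antisense gene AC079313.2 (GPR84-AS1). AC079313.2 ran 21.0, 13.8 and 15.7 in untreated, 1.27, 1.568 and 1.09 in DAC, 60.03, 68.5 and 50.2 in ATRA, and 28.0, 23.6 and 25.5 with both drugs. The antisense gene was thus low where GTSF1 was high under DAC alone, whereas both were present with DAC+ATRA. The strand setting of the counting is not given in the sources used here.

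TKTL1, an X-linked transketolase-like gene expressed in testis and in some tumors, spans 154295795 to 154330350 on the plus strand. No read was found in untreated or ATRA cells. DAC gave 73.8, 76.8 and 27.2 and DAC+ATRA gave 11.2, 1.13 and 20.4 normalised counts. Replicates differed widely in both groups, and no DAC+ATRA library reached a DAC library (mean 18.4% of DAC). TKTL1 was higher than in ATRA in 3 of 3 libraries, at least 4.06-fold by the means, but did not pass the test (log2 difference 3.04, SE 0.80, limma adjusted p = 0.0353).

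MKRN3, a makorin ring-finger ubiquitin ligase gene expressed from the paternal allele, lies on chromosome 15 (23565674 to 23630075, plus strand). It had 0, 0.812 and 0 in untreated cells, 15.3, 20.4 and 13.1 with DAC, no read with ATRA, and 8.40, 15.8 and 6.13 with DAC+ATRA. The DAC and DAC+ATRA values overlapped. Against ATRA the log2 difference was 3.38 (SE 0.50, limma adjusted p = 0.00267), at least 3.76-fold, and the call held in 8 of 13 alternatives with adjusted p from 3.05e-04 to 0.0186. Without ATRA replicate 2 or 3, or DAC+ATRA replicate 1 or 2, adjusted p was 0.0142, 0.0122, 0.0112 and 0.0132, and without the filter on low values it was 0.0186. The neighboring imprinted gene MAGEL2 was listed at 0 in all 12 libraries.

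PNMA5 (X chromosome, 152988824 to 152994116, minus strand) had no read in untreated or ATRA cells. It had 34.3, 20.4 and 11.97 in DAC and 1.40, 1.13 and 5.11 in DAC+ATRA. The combination thus held 11.4% of the DAC mean, all of it above ATRA, from 7 reads in total (limma log2 difference 1.65, adjusted p = 0.0829).

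Of 120 genes of a germline and cancer/testis list, 103 were silent in the untreated libraries, against 29451 of all 46639 symbols. Of the 120, 72 had no read in any of the 12 libraries. GTSF1 and TKTL1 were the 2 among the 18. In 17 that could be tested, 4 were higher in DAC+ATRA than in ATRA (background 2.83% of all genes tested) and 0 lower (3.43%), with a median log2 difference of 0.47 against 0.01 over all genes. The 4 were GTSF1, PIWIL4 (0.87), MAGEB2 (3.56) and NANOS1 (1.16). MAGEB2, a testis antigen of the MAGE family, was not silent at the start and averaged 26.0 in untreated, 104 in DAC, 5.93 in ATRA and 77.5 with both drugs. PIWIL4, an Argonaute protein that binds piRNAs, averaged 1132, 1896, 553 and 1007 in the same order. Of the 15 tested genes outside the 18, 6 had every DAC library above every untreated library (background 13.9%) and 2 had every DAC library below (12.3%). Imprinted genes numbered 22 on a separate list, which does not hold MKRN3. Of these, 8 were tested and 1, NDN, was higher (1.17) in DAC+ATRA, against a background of 2.83%.

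In the myeloid set, S100A12, which encodes the calcium-binding protein calgranulin C of neutrophils, lies on chromosome 1 (153373711 to 153375621, minus strand). It ran 0, 0.812 and 1.25 in untreated, 28.0, 26.7 and 18.5 in DAC, and 1.40, 0 and 0 in DAC+ATRA, with no read in ATRA. A single read was left in the combination, 1.91% of the DAC mean. The gene sits between S100A9 and S100A8, the other calgranulins. S100A9 averaged 398, 4119, 45.8 and 449 and S100A8 averaged 33.8, 229, 3.92 and 13.3 in untreated, DAC, ATRA and DAC+ATRA. Both neighbors thus had their highest mean in DAC and their lowest in ATRA.

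HDC, histidine decarboxylase, which makes histamine in mast cells and basophils, lies on chromosome 15 (50241947 to 50265965, minus strand). It ran 2.33, 2.44 and 0.627 in untreated, 19.1, 17.25 and 9.80 in DAC, and 1.40, 0 and 0 in DAC+ATRA, with no read in ATRA. S100A12 and HDC each had 1 read over the DAC+ATRA libraries and none over the ATRA libraries. The log2 difference of 0.42 was not called for either (limma adjusted p = 0.66).

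AZU1, azurocidin of neutrophil primary granules, lies on chromosome 19 (825097 to 832018, plus strand). It ran 1.56, 1.62 and 2.51 in untreated, 14.0, 10.98 and 10.9 in DAC, 2.69, 0.744 and 0 in ATRA, and 4.20, 2.25 and 4.08 with both drugs. All of its DAC signal was counted to 1 transcript of 4 exons, while its 5-exon transcript averaged 0 in DAC and in DAC+ATRA. ATRA and DAC+ATRA overlapped (limma log2 difference 1.25, adjusted p = 0.199). PRTN3, the granule protease gene beside it, averaged 1.01, 9.35, 0.248 and 1.15 in untreated, DAC, ATRA and DAC+ATRA.

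CAMP, the cathelicidin antimicrobial peptide of secondary granules, lies on chromosome 3 (48223347 to 48225491, plus strand). It ran 0, 0 and 1.25 in untreated, 11.4, 10.98 and 8.71 in DAC, 0, 2.23 and 2.51 in ATRA, and 2.80, 7.88 and 7.15 with both drugs. Every DAC+ATRA library lay above the ATRA libraries and below the DAC libraries. The ratio to ATRA was 3.78 (exact 95% interval 1.40 to 11.8, for counting error only) and did not pass the test (limma log2 difference 1.53, adjusted p = 0.145).

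RETN encodes resistin, a secreted protein made by monocytes and macrophages in humans, on chromosome 19 (7669049 to 7670455, plus strand). It ran 2.33, 0.812 and 1.25 in untreated, 14.0, 23.5 and 11.97 in DAC, 3.58, 0 and 5.02 in ATRA, and 12.6, 10.1 and 16.3 with both drugs. It was the myeloid gene best kept in the combination, at 78.9% of the DAC mean, and overlapped with DAC. The ratio to ATRA was 4.81 (exact 95% interval 2.33 to 10.9, for counting error only), with a limma log2 difference of 2.19 and adjusted p = 0.0618.

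A list of 31 granulocyte, monocyte and mast cell genes holds S100A12, HDC, AZU1 and CAMP. In 25 that could be tested, 10 were higher in DAC+ATRA than in ATRA (background 2.83%) and 0 lower (3.43%), with a median log2 difference of 1.24 against 0.01 over all genes. None of the 4 genes switched on from silence was among those 10. The 10 included MPO, the myeloperoxidase of primary granules (log2 difference 3.73, means of 1513, 22030, 805 and 10420 in untreated, DAC, ATRA and DAC+ATRA), and CLC, the eosinophil and basophil galectin (5.36, means of 126, 2396, 22.1 and 907). They also included S100A9 (3.27) and CD177 (3.42). Of the 21 tested genes outside the 18, 13 had every DAC library above every untreated library (background 13.9%) and 0 below. Summed over the list, the level ran from 46210 to 59940 normalised counts in untreated, 185400 to 231500 with DAC, 7977 to 13090 with ATRA and 55560 to 58410 with DAC+ATRA. LYZ, the lysozyme gene, made up most of each sum in every group (means of 41630, 153300, 6819 and 40820 in untreated, DAC, ATRA and DAC+ATRA). Without LYZ the sums ran from 11940 to 13640, 46820 to 55900, 2695 to 3688 and 14900 to 16520 in the same order. Not every gene followed the sum: of the 21 outside the 18, 14 had their highest mean in DAC and 16 their lowest in ATRA. CSF1R (566, 506, 924 and 840) and CEACAM8 (0, 0, 14.4 and 15.7) had higher means with ATRA than with DAC. The part of the list in the values of the 5 myeloid genes was not tested.

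Lists of other lineages held none of the 18 genes. Of 27 erythroid and megakaryocytic genes 23 were silent in untreated cells, as were 16 of 24 lymphoid, 20 of 25 neural, 18 of 24 epithelial and 13 of 22 mesenchymal and muscle genes. Over all symbols, 29451 of 46639 were silent in untreated cells. Against ATRA, DAC+ATRA was higher for 1 of 6 tested erythroid and megakaryocytic genes and for 0 of 8 lymphoid, 6 neural, 6 epithelial and 9 mesenchymal genes (background 2.83%). It was lower for 2 lymphoid and 1 mesenchymal gene (background 3.43%). In lists this short a single call is a large share of the list, so nothing is read from the distance of these counts to the background. All 13 genes of a MOLM-13 myeloid identity list were above silence in untreated cells. Their untreated means differed widely, as for FLT3 (14030), CD33 (372), CD14 (10.6) and ITGAM (9.58). In DAC+ATRA against ATRA, 2 of the 13 were higher (background 2.83%) and 2 lower (3.43%).

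Among the remaining coding genes, ZNF595, a C2H2 zinc-finger gene near the end of chromosome 4 (53286 to 88208, plus strand), had no read in untreated cells. It reached 29.3, 37.6 and 34.8 with DAC, 0, 0.744 and 1.67 with ATRA, and 84.0, 70.9 and 103 with DAC+ATRA. ZNF595 was the one gene of the 18 whose combination values all exceeded its DAC values, at 254% of the DAC mean. Against ATRA the log2 difference was 5.69 (SE 0.44, limma adjusted p = 1.22e-04), called in all 14 alternatives with adjusted p from 1.77e-12 to 0.00969. The ratio to ATRA was 106 (exact 95% interval 35.7 to 516, for counting error only, from 3 ATRA reads). Its neighbor ZNF718 averaged 82.7, 83.4, 104 and 80.2 in untreated, DAC, ATRA and DAC+ATRA. Zinc-finger genes of this family resemble each other, so reads shared between copies could be split or lost in the counting.

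DLL4 encodes a ligand of Notch receptors and lies on chromosome 15 (40929340 to 40939073, plus strand). It ran 2.33, 0.812 and 1.88 in untreated, 42.0, 18.8 and 15.2 in DAC, 3.58, 4.46 and 2.51 in ATRA, and 9.80, 18.01 and 24.5 with both drugs. The DAC and DAC+ATRA ranges overlapped, and ATRA lay below both. The ratio to ATRA was 5.12 (exact 95% interval 2.73 to 10.3, for counting error only). The limma log2 difference was 1.97 (SE 0.45) with adjusted p = 0.0206, called in 3 of 14 alternatives (adjusted p from 0.00424 to 0.085).

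ADAMTS20, a secreted metalloprotease gene, lies on chromosome 12 (43353866 to 43552203, minus strand). It ran 0, 2.44 and 2.51 in untreated, 16.5, 17.25 and 25.04 in DAC, and 1.40, 0 and 1.02 in DAC+ATRA, with no read in ATRA. C3orf70 on chromosome 3 (185076838 to 185153060, minus strand) ran 2.33, 1.62 and 0 in untreated, 10.2, 12.5 and 8.71 in DAC, and 2.80, 1.13 and 1.02 in DAC+ATRA, again with no read in ATRA. Their combination means were 4.12% and 15.7% of the DAC means, and limma gave adjusted p of 0.392 and 0.110 against ATRA.

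AC007906.2 on chromosome 16 (53035690 to 53052897, minus strand) ran 2.33, 1.62 and 2.51 in untreated, 16.5, 15.7 and 11.97 in DAC, 1.79, 1.49 and 2.51 in ATRA, and 4.20, 0 and 2.04 with both drugs. AC138811.2, also on chromosome 16 (18788063 to 18801519, minus strand), ran 0, 1.62 and 1.25 in untreated, 17.8, 12.5 and 9.80 in DAC, 3.58, 0.744 and 0 in ATRA, and 0, 1.13 and 1.02 with both drugs. They were the 2 genes with a log2 difference below 0 against ATRA (-0.21 and -0.30, limma adjusted p of 0.869 and 0.811). AC138811.2 overlaps RPS15A and ARL6IP1 on the same strand, both read in all groups, so its few reads are uncertain. For AC007906.2 the plain means ran the other way (1.93 in ATRA and 2.08 in DAC+ATRA), and the negative sign comes from averaging on the log scale with a DAC+ATRA library at 0.

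Of the non-coding genes, AC011472.2 on chromosome 19 (11295715 to 11324441, minus strand) ran 0.778, 0 and 0.627 in untreated and 70.0, 78.4 and 81.6 in DAC. It was nearly unread with ATRA (0, 0 and 1.67) and reached 71.4, 94.6 and 71.5 with DAC+ATRA. Its level in the combination overlapped with DAC, at 103% of the mean. Against ATRA the log2 difference was 5.84 (SE 0.48, limma adjusted p = 1.50e-04), called in 13 of 14 alternatives (adjusted p from 2.61e-10 to 0.0114, the latter without the filter on low values). The ratio was 145 (exact 95% interval 39.7 to 1206, for counting error only, from 2 ATRA reads). The gene overlaps RAB3D on the same strand, whose means were 3303, 3309, 3590 and 5507 in untreated, DAC, ATRA and DAC+ATRA. RAB3D was thus present in every group, including those in which AC011472.2 was silent. On the opposite strand AC011472.2 overlaps TSPAN16, which averaged 0.259, 9.60, 1.38 and 15.01 in the same order. Both genes were higher in each DAC and DAC+ATRA library than in any untreated or ATRA library. With the strand setting not given, reads shared by the pair cannot be told apart.

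AC104823.1 on chromosome 2 (195448532 to 195481827, plus strand) behaved otherwise. It ran 0, 2.44 and 0.627 in untreated, 57.2, 69.0 and 75.1 in DAC, 0, 0.744 and 0 in ATRA, and 0, 1.13 and 0 with both drugs. From 158 reads in the DAC libraries it went to 1 read in the combination, 0.559% of the DAC mean, the lowest share of the 18 genes (limma adjusted p = 0.934 against ATRA). AC104809.2, also on chromosome 2 (240954617 to 240967451, minus strand), ran 1.56, 0.812 and 1.88 in untreated, 11.4, 22.0 and 19.6 in DAC, no read in ATRA, and 1.40, 4.50 and 11.2 with both drugs. It kept 32.3% of the DAC mean and was at least 2.13-fold above ATRA by the means (limma log2 difference 2.45, adjusted p = 0.0337).

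**Figure D4:**
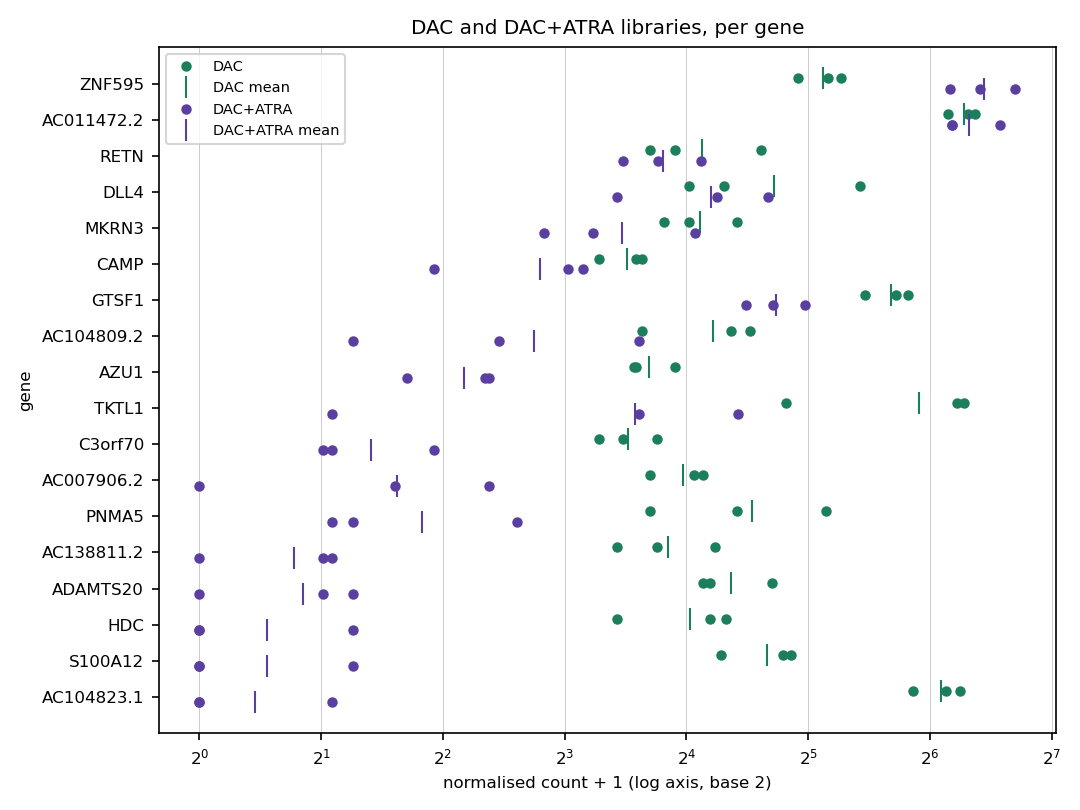
Normalised count + 1 (log axis, base 2) of the 18 genes (rows, ordered by the share of the DAC mean kept) in the 3 DAC and 3 DAC+ATRA libraries, with group means as bars. The combination kept 254% of the DAC mean for ZNF595 and 0.559% for AC104823.1, and 13 genes show every DAC+ATRA point left of every DAC point. The DAC values were chosen to be high, and the share of all genes with such positions was not taken.

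The share of the DAC mean kept in the combination is given by class as a description, because the DAC values were chosen to be high. Among germline, imprinted and gag-derived genes it was 62.2% for MKRN3, 51.2% for GTSF1, 18.4% for TKTL1 and 11.4% for PNMA5. In the myeloid set it was 78.9% for RETN, 57.3% for CAMP, 29.4% for AZU1, 3.04% for HDC and 1.91% for S100A12. The non-coding genes spanned 103% for AC011472.2, 32.3% for AC104809.2 and 0.559% for AC104823.1. The other coding genes spanned 254% for ZNF595, 68.8% for DLL4, 15.7% for C3orf70, 14.1% for AC007906.2, 5.35% for AC138811.2 and 4.12% for ADAMTS20. Within each of these small classes the shares ranged widely, and a difference between classes was not tested. The shares of S100A12, HDC and AC104823.1 rest on 1 read each in the combination.

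The same limits applied to ATRA and DAC+ATRA (every ATRA library at most 3, every DAC+ATRA library at least 8) gave 29 symbols with a retained name, or 0.108% of 26913. They share 3 with the 18, namely AC011472.2, GTSF1 and ZNF595, which are 10.3% of those 29 and 16.7% of the 18. The mirrored limits, untreated at least 8 and DAC at most 3, were met by 9 symbols with a retained name, AC079313.2 among them.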

How the data were processed

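RNA of MOLM-13 was depleted of ribosomal RNA and sequenced strand-specifically in 12 libraries, 3 per group. The authors used STAR for alignment to hg38 and htseq-count for counting per Ensembl transcript, and divided the counts by DESeq2 size factors; versions, annotation release and strand setting are not given in the sources used here. The deposited values are this normalised signal, and all were whole multiples of 1 step per library (tolerance 0.01 reads), so reads were recovered. How reads fitting several transcripts or overlapping genes were counted is not given; FLNA, a widely used gene, averaged 1.42 in untreated cells, so a listed level may be below or above the true one. Rows were summed per symbol. Positions are from GENCODE (GRCh38).

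The 18 genes, the lists and the tests were chosen with earlier results of these data known. The naming rule took list members, the 15 coding and 6 non-coding genes highest in DAC, the 5 largest called changes, the 5 highest in ATRA and the 2 genes on each side of a limit, which covers all 18. Neighbors and other list genes were named after their values were seen. DAC+ATRA was compared with ATRA by limma 3.58.1 (R 4.3.3; trend, two-sided, Benjamini-Hochberg over 16832 symbols averaging at least 2 normalised counts) on log2 (value + 1) at an adjusted p under 0.01. Scripts were tested on simulated data. In the simulation for limma the changed genes were set above the ATRA means of the 18 genes, so it does not cover levels that low. Alternatives used edgeR 4.0.16, DESeq2 1.42.0, other filters, pseudocounts and scalings, and libraries left out. The scaling by total counts and the list sum without LYZ were added after seeing the data.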

Additional observations from a re-analysis of the deposited data

How the results depend on the processing

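Over all genes, 1053 differed between DAC+ATRA and ATRA (476 higher, 577 lower), against 190 without the filter on low values, 1911 with edgeR (909 and 1002), 1874 with DESeq2 (904 and 970) and 2500 at an adjusted p under 0.05 (1288 and 1212). Leaving out a library gave 271 (without DAC+ATRA replicate 2) to 1202 (without ATRA replicate 1). It gave 337 and 457 without DAC+ATRA replicates 3 and 1, and 416 and 594 without ATRA replicates 2 and 3. Of the 18 genes, the 4 called higher became 2 without the filter, 7 with edgeR, 7 at 0.05 and 3 to 4 with a library left out. DESeq2 also called 4, with DLL4 in place of MKRN3, and gave no adjusted p for 13. None was called lower in any alternative. The rule gave 4 genes at limits of 1 and 16, and 24 to 30 with a library left out.

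Replicate numbers did not pair the libraries: same-numbered ATRA and DAC+ATRA libraries correlated at 0.025, -0.0074 and 0.014 in their deviations, and not every library correlated best with its own number. With the replicate number as a block, 921 genes differed (428 higher, 493 lower), and 4 of the 18 were higher.

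Signs changed for uncalled genes. With a library left out, AC104823.1 ran from -0.27 (without DAC+ATRA replicate 2) to 0.36, with -0.04 without ATRA replicate 1 or 3. AC007906.2 ran from -0.73 to 0.46 (without DAC+ATRA replicate 2) and was 0.022 with edgeR. AC138811.2 ran from -0.80 to 0.30 (without ATRA replicate 1), with 0.05 without DAC+ATRA replicate 1. Of the other alternatives for single genes, 228 kept direction and call, 2 (S100A12 and HDC without DAC+ATRA replicate 1) fell to a difference of 0, 10 gained a call and 6 lost one; the causes were not tested. Few reads per gene and 3 libraries of 1 experiment limit all of these values.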

Other observations

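The 29 symbols low in every ATRA library and at 8 or more in every DAC+ATRA library held several that were not silent in untreated cells, named here after their values were seen. Means are given in the order untreated, DAC, ATRA and DAC+ATRA. The metallothionein genes MT1H (41.7, 497, 0.279 and 23.1) and MT1M (9.52, 239, 1.09 and 11.1) and the eosinophil granule gene PRG3 (27.9, 316, 0.299 and 38.8) were highest in DAC. LINGO4 (0, 0, 0.547 and 24.0), MBD3L3 (0, 0, 0.527 and 18.5) and PTPRG (0, 0, 1.42 and 25.4) had no read in untreated or DAC libraries. These values chose the symbols, so none was tested.

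Of the 9 symbols at 8 or more in untreated and at most 3 in DAC libraries, 4 had a higher mean in ATRA than in untreated cells (AC079313.2, ANGPTL4, EGR2 and CCN2). The other 5 (AC091182.1, AL357992.1, ARFGEF3, FZD4 and ZFR2) had a lower one, of 1.02 to 2.88. ANGPTL4 averaged 10.6, 1.67, 335 and 27.5, EGR2 8.54, 1.21, 94.5 and 3.42, and CCN2 9.58, 0.523, 65.6 and 2.11 in the same order.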
